A study of Salmo salar with 26 samples.

Results

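The unigenes described here carry the names of the glycolytic enzymes, of the glucose transporters that feed them and of the polyol pathway, in the lenses of Atlantic salmon (Salmo salar) with and without cataract. They were chosen by wording alone: the description of a unigene's best protein hit had to contain the name of a glycolytic enzyme, aldose reductase, sorbitol dehydrogenase or a glucose transporter. That rule found 48 of the 26681 unigenes, which are contigs assembled from the reads, and 39 of the 48 passed a filter on low read numbers and were tested. RNA was sequenced from whole lenses of 26 fish, 1 fish to a library, as poly(A)-selected RNA read from 1 end. The groups were diploid fish with cataract (2N+, 6 lenses), diploid fish without cataract (2N-, 6 lenses), triploid fish with cataract (3N+, 8 lenses) and triploid fish without cataract (3N-, 6 lenses). Triploid fish carry an additional chromosome set in every cell, and the labels name no treatment other than ploidy. The 2N+ fish weighed 460 to 840 g, against 110 to 345 g for the 2N- fish, so body weight and cataract cannot be told apart in diploids. The 3N+ fish weighed 270 to 885 g and the 3N- fish 280 to 700 g.

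The lens has no blood supply, and its mature fibre cells have lost their mitochondria, so most of its ATP comes from glycolysis of glucose taken up from the aqueous humour, with lactate as the end product. Glucose that is not phosphorylated by hexokinase can enter the polyol pathway, in which aldose reductase reduces it to sorbitol and sorbitol dehydrogenase oxidises sorbitol to fructose. Sorbitol held inside fibre cells draws in water, and in mammals this is a known route to diabetic cataract.

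Every step of glycolysis from glucose uptake to enolase was represented by at least 1 tested unigene. The 48 unigenes comprised 5 glucose transporters, 1 hexokinase, 1 glucose-6-phosphate isomerase, 3 phosphofructokinases, 3 aldolases, 4 triosephosphate isomerases, 1 glyceraldehyde-3-phosphate dehydrogenase, 3 phosphoglycerate kinases, 3 bisphosphoglycerate mutases, 4 phosphoglycerate mutases, 10 enolases, 1 pyruvate kinase, 3 lactate dehydrogenases and 1 aldose reductase. No description contained sorbitol dehydrogenase, which says only that no contig of this set bore that name. The only pyruvate kinase match was a contig with 1 read in all 26 libraries. The wording also caught 5 unigenes of other pathways: ketohexokinase, D-3-phosphoglycerate dehydrogenase and 3 contigs of enolase-phosphatase E1. Of the 9 untested unigenes, 5 had a mammalian protein as best hit and together held 9 reads, all in 3N+ replicates 2 and 6. The other 4 were a glucose transporter member 5-like contig, a triosephosphate isomerase contig and a pair of short lactate dehydrogenase contigs.

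All 48 together took 528 to 1592 RPM (reads scaled to library size but not to contig length), with a median of 863, which is 0.053% to 0.159% of a library. Levels are given below as RPKM, reads scaled to contig length and library size, as deposited. Changes come from RPKM divided by a library scaling factor (trimmed mean of M values), as differences of log2(scaled RPKM + 0.5), which understates the change of unigenes with low values. That factor averaged 1.163 in 2N+ libraries, 0.944 in 2N- libraries, 0.99 in 3N+ libraries and 0.961 in 3N- libraries. Without it the median of all unigenes stood 0.28 (log2) higher in 2N+ than in 2N- lenses, so a member with higher deposited RPKM in 2N+ lenses may have a log2 change near 0. Libraries held 9.76 to 11.95 M reads and the typical unigene had 14 reads in a library (median). Sampling error is largest for contigs with few reads, which are short or low in RPKM. Median reads per library were 51 for CL1194.Contig9, 15 for CL1194.Contig6, 7 for CL1194.Contig8, 19.5 for CL3458.Contig2 and 8 for CL609.Contig1, all described below.

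Some libraries stood apart before any comparison. A set of 3 libraries, 2N+ replicates 2 and 3 and 3N- replicate 1, held far more photoreceptor RNA than the rest. The sum of 14 photoreceptor unigenes was 3216 and 833 RPKM in the 2N+ libraries and 1964 RPKM in the 3N- library, against 1.68 to 394 RPKM in the other 23. By group that sum ran from 2.61 to 3216 RPKM in 2N+, 3.61 to 151 RPKM in 2N-, 10.4 to 394 RPKM in 3N+ and 1.68 to 1964 RPKM in 3N- lenses. Connexin 43, a gap junction protein of the lens epithelium, divided the libraries a different way. It lay between 23.7 and 109 RPKM in 14 lenses and between 0.42 and 7.89 RPKM in 12, and the 14 comprised 4 2N+, 4 2N-, 3 3N+ and 3 3N- lenses. The 77 lens fibre unigenes, mostly crystallins, summed to between 469977 and 595297 RPKM in every library, and 3 leukocyte unigenes summed to at most 2.91 RPKM. Markers of other tissues were less even. The 7 keratin unigenes, markers of surface epithelium, had a median sum of 66.3 RPKM in 2N+ lenses and 32.3 in 2N- lenses, and of 100.5 RPKM in 3N+ lenses (15.6 to 637) and 22.4 in 3N- lenses (14.8 to 43.8). The 4 erythrocyte unigenes had a median sum of 252 RPKM in 2N+ lenses and 55.6 in 2N- lenses, and of 157 RPKM in 3N+ lenses and 12.1 in 3N- lenses, with up to 2028 RPKM in 1 3N- lens. In whole lenses, fewer cells of a type and less RNA per cell cannot be told apart.

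**Figure D1:**
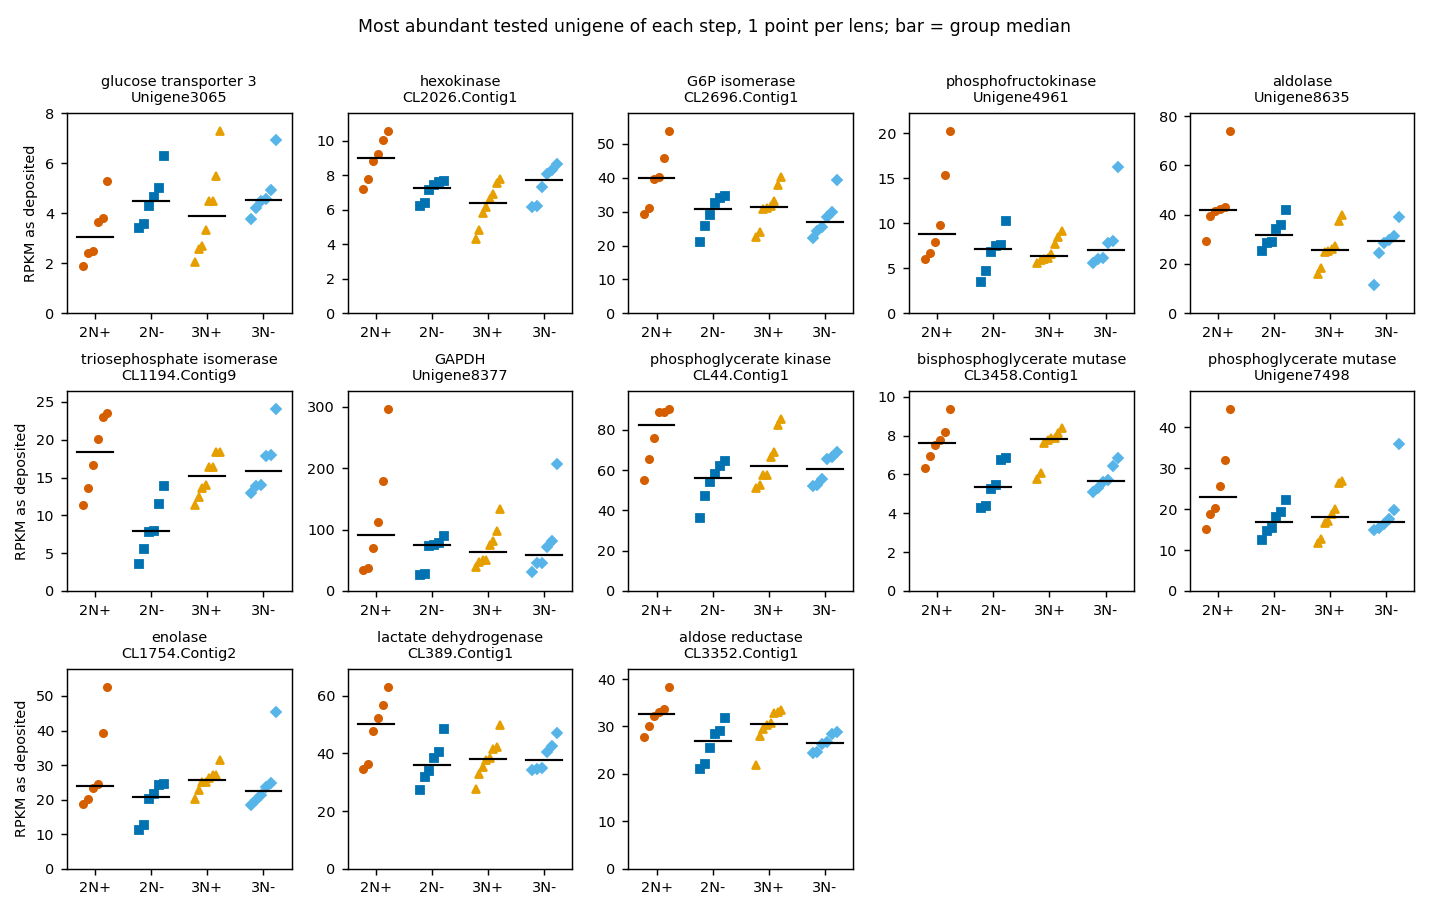
RPKM as deposited of the most abundant tested unigene of each step, 1 point per lens, in 2N+, 2N-, 3N+ and 3N- lenses, on linear axes from 0 that differ between panels, with a bar at each group's median. Glyceraldehyde-3-phosphate dehydrogenase (group medians 58.8 to 91.4 RPKM) and phosphoglycerate kinase (56.3 to 82.4 RPKM) are the highest, and 2N+ and 2N- lenses overlap in every panel.

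Glyceraldehyde-3-phosphate dehydrogenase, at 83 ± 62 RPKM (SD, n = 26), and phosphoglycerate kinase 1, at 64.2 ± 14 RPKM, were the most abundant glycolytic contigs per length. Hexokinase, bisphosphoglycerate mutase, phosphofructokinase and the glucose transporters were among the least abundant. The members that varied least from lens to lens had over 20 RPKM on average. The SD of log2 values within groups was 0.12 for phosphoglycerate kinase 1, 0.15 for lactate dehydrogenase B, 0.16 for glucose-6-phosphate isomerase and 0.19 for aldose reductase. The median of that SD was 0.262 over the 1804 tested unigenes with a mean of 20 RPKM or more. Over the 10 tested members at that level it was 0.253, so as a set they were about as variable. Among those 10, glyceraldehyde-3-phosphate dehydrogenase reached 0.73. The widest spread among tested members was 0.85, in glucose transporter 1A.

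None of the 39 tested members passed an adjusted p of 0.05 in any of the 6 comparisons. The percentage of all 19532 tested unigenes that did so was 1.39% for 2N+ against 2N-, 0.087% for 3N+ against 3N-, 2.67% for the cataract effect averaged over both ploidies, 0.0717% for 3N- against 2N-, 0.0102% for 3N+ against 2N+ and 0.00512% for the interaction of cataract and ploidy. A count of 0 among 39 is therefore close to what the background gives. At an unadjusted p under 0.05, 8 members (20.5%) stood out for 2N+ against 2N-, against 12.5% of all unigenes, and 3 members (7.69%) for 3N+ against 3N-, against 8.94%. The average cataract effect gave 9 members (23.1%, against 14.6%), 3N- against 2N- 5 members (12.8%, against 10%), 3N+ against 2N+ 4 members (10.3%, against 8.02%) and the interaction 5 members (12.8%, against 6.16%). The groups overlapped in RPKM for all 39 members in each of the 4 pairwise comparisons. Among all unigenes, groups without overlap made up 2.64% (2N+ above 2N-) and 0.435% (2N+ below 2N-), 0.261% (3N+ above 3N-) and 0.266% (3N+ below 3N-), 0.773% (3N- above 2N-) and 0.276% (3N- below 2N-), and 0.041% (3N+ above 2N+) and 0.164% (3N+ below 2N+).

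The direction of the small differences was uneven in diploids. Of the 29 tested enzyme contigs between hexokinase and lactate dehydrogenase, 28 (96.6%) had a positive log2 change for 2N+ against 2N-, compared with 53.3% of all unigenes, and their median was 0.19 against 0.02 for all unigenes. For 3N+ against 3N-, 15 of the 29 were positive and their median was 0.01. On RPKM as deposited 29 of the 29 were positive in diploids and 28 lay above that scaling's median of 0.28. Without the 3 libraries rich in photoreceptor RNA 24 were positive in diploids, with a median of 0.11, and 20 in triploids, with a median of 0.07. The ploidies thus differed less in that fit, and the median interaction of the 29 was -0.05, against -0.18 in the main fit. With body weight in the fit 26 were positive in diploids and 16 in triploids. Without the 3 libraries richest in keratin RNA (3N+ replicates 1 and 6, 2N+ replicate 5) 25 were positive in diploids and 10 in triploids. Contigs of the same assembly cluster can share reads, so these 29 are not independent, and no test was made of the count.

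**Figure D2:**
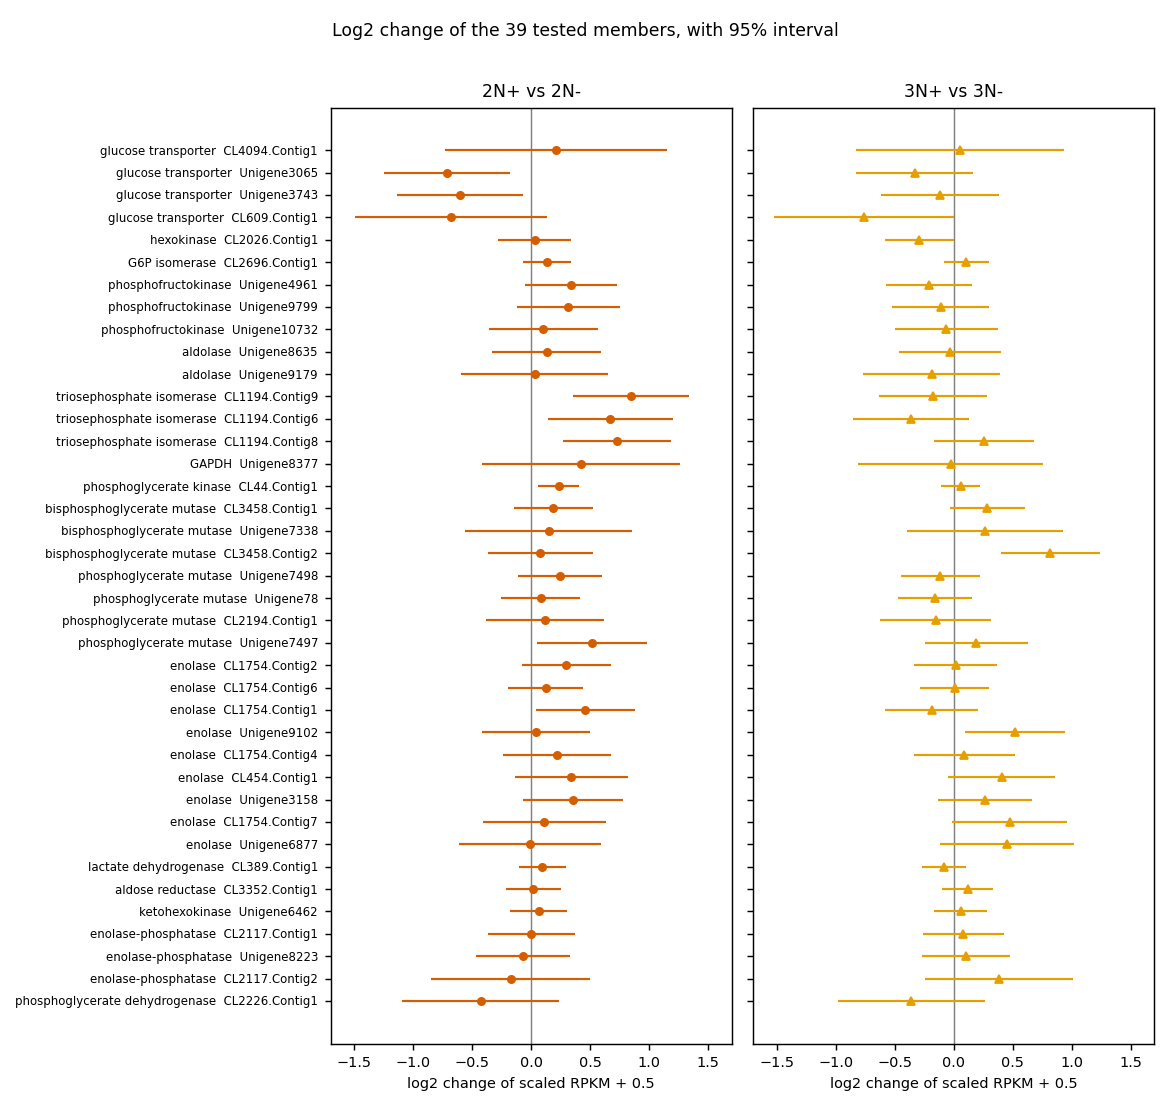
Log2 change with its 95% interval for each of the 39 tested unigenes, ordered by step, for 2N+ against 2N- and for 3N+ against 3N-. Most intervals include 0, and the diploid estimates of the glycolytic enzymes lie mostly to the right of 0.

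Glucose enters cells through transporters of solute carrier family 2, of which member 3 (GLUT3) is a high-affinity form and member 1 (GLUT1) the widespread basal form. The GLUT3 contig Unigene3065 had a lowest, median and highest level of 1.89, 3.06 and 5.27 RPKM in 2N+ lenses, against 3.401, 4.48 and 6.30 RPKM in 2N- lenses. In triploids it had 2.04, 3.90 and 7.27 RPKM in 3N+ lenses, against 3.75, 4.53 and 6.93 RPKM in 3N- lenses. Of the 6 2N+ lenses, 3 lay below every 2N- lens. The log2 change was -0.71 ± 0.26 (SE) in diploids (limma adjusted p = 0.202) and -0.52 ± 0.18 averaged over ploidies (limma adjusted p = 0.123, and 0.0472 without 3N+ replicate 2, the highest 3N+ lens and so the one most opposed to the change). A second GLUT3 contig of 289 bases, CL609.Contig1, had 1.46, 2.38 and 5.42 RPKM in 2N+ lenses, against 3.05, 3.34 and 4.35 RPKM in 2N- lenses. In triploids this contig had 0, 2.23 and 4.16 RPKM in 3N+ lenses, against 1.54, 2.53 and 8.38 RPKM in 3N- lenses, and its averaged log2 change was -0.72 ± 0.27. Of the 6 2N+ lenses, 5 were below every 2N- lens, and the exception, 2N+ replicate 2, is rich in photoreceptor RNA. Unigene3743 was named GLUT1-like, but its KEGG entry is that of the GLUT3 contigs. It had 1.45, 2.29 and 2.88 RPKM in 2N+ lenses, against 1.94, 2.83 and 4.67 RPKM in 2N- lenses (log2 change -0.60 ± 0.26). GLUT1A, CL4094.Contig1, had medians of 3.77 RPKM in 2N+ lenses, 3.07 in 2N-, 1.71 in 3N+ and 2.26 in 3N- lenses, within a range from 0.456 to 6.61 RPKM in all lenses. The 3 other transporter contigs thus had negative diploid estimates and GLUT1A a log2 change of 0.21 ± 0.46, and no transporter passed the test in any comparison.

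Hexokinase traps glucose in the cell as glucose-6-phosphate. The contig named hexokinase 1a, CL2026.Contig1, had 7.18, 9.01 and 10.5 RPKM in 2N+ lenses, against 6.19, 7.27 and 7.68 RPKM in 2N- lenses. It had 4.27, 6.39 and 7.77 RPKM in 3N+ lenses, against 6.16, 7.70 and 8.64 RPKM in 3N- lenses. Once libraries were scaled the diploid log2 change was 0.03 ± 0.15 and the triploid one -0.29 ± 0.14 (limma adjusted p = 0.553).

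Glucose-6-phosphate isomerase turns glucose-6-phosphate into fructose-6-phosphate. CL2696.Contig1 had 29.2, 39.9 and 53.8 RPKM in 2N+ lenses, against 21.0, 30.8 and 34.7 RPKM in 2N- lenses, and 22.5, 31.3 and 40.3 RPKM in 3N+ lenses, against 22.2, 27.0 and 39.4 RPKM in 3N- lenses. Its log2 change was 0.13 ± 0.10 in diploids (95% interval -0.07 to 0.34) and 0.11 ± 0.09 in triploids. A contig of the same cluster, CL2696.Contig2, has the same enzyme's KEGG entry but another wording in its description, and so is not among the 48. It was singled out after its values were seen. CL2696.Contig2 had 12.4, 18.9 and 31.8 RPKM in 3N+ lenses, against 28.4, 36.5 and 39.1 RPKM in 3N- lenses. In diploids CL2696.Contig2 had 16.05, 23.9 and 31.99 RPKM in 2N+ lenses, against 16.5, 25.0 and 35.4 RPKM in 2N- lenses. CL2696.Contig2 fell with cataract averaged over both ploidies, by a log2 change of -0.64 ± 0.15 (limma adjusted p = 0.0171), while the triploid change of -0.92 ± 0.20 alone missed the threshold (limma adjusted p = 0.0799). The averaged call was lost on RPKM as deposited, with body weight in the fit, and without the 3 lenses richest in keratin or in erythrocyte RNA (limma adjusted p = 0.0571, 0.0696, 0.0881 and 0.0562). The triploid call of CL2696.Contig2 appeared with connexin 43 in the fit (limma adjusted p = 0.0165), with voom on recovered reads (limma adjusted p = 0.0433), and without any 1 of 2N+ replicate 4 and 3N+ replicates 2, 5 and 8 (limma adjusted p = 0.0398 to 0.047). The contigs of this cluster can share reads, and how they were split between the pair is not given in the sources used here.

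Phosphofructokinase commits fructose-6-phosphate to glycolysis, and its 3 contigs were all named as the C type. Unigene4961 had 6.07, 8.85 and 20.2 RPKM in 2N+ lenses, against 3.45, 7.11 and 10.3 RPKM in 2N- lenses, and 5.53, 6.35 and 9.15 RPKM in 3N+ lenses, against 5.61, 6.99 and 16.2 RPKM in 3N- lenses. The highest 2N+ lens and the highest 3N- lens are libraries rich in photoreceptor RNA. Without the 3 libraries rich in photoreceptor RNA its medians were 7.285 RPKM in 2N+ and 6.15 RPKM in 3N- lenses. The log2 change was 0.34 ± 0.19 in diploids and -0.21 ± 0.18 in triploids, with an interaction of -0.54 ± 0.26. Aldolase splits fructose-1,6-bisphosphate into triose phosphates. The aldolase C contig Unigene8635 had 29.3, 42.0 and 73.9 RPKM in 2N+ lenses, against 25.4, 31.7 and 41.9 RPKM in 2N- lenses. In triploids Unigene8635 had 16.1, 25.7 and 39.9 RPKM in 3N+ lenses, against 11.3, 29.1 and 38.9 RPKM in 3N- lenses. Its largest estimate was for 3N+ against 2N+, a log2 change of -0.51 ± 0.21 (limma adjusted p = 0.557).

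Triosephosphate isomerase interconverts the triose phosphates, and CL1194.Contig9 and CL1194.Contig8 had the smallest diploid p-values of the set. CL1194.Contig9 had 11.3, 18.3 and 23.5 RPKM in 2N+ lenses, against 3.62, 7.89 and 13.9 RPKM in 2N- lenses. In triploids it had 11.4, 15.2 and 18.4 RPKM in 3N+ lenses, against 13.0, 15.9 and 24.1 RPKM in 3N- lenses. The 2N- lenses were the low group but overlapped each of the other 3 groups, which overlapped one another. The log2 change was 0.85 ± 0.24 for 2N+ against 2N- (95% interval 0.36 to 1.34, limma adjusted p = 0.0747) and 1.02 ± 0.24 for 3N- against 2N- (limma adjusted p = 0.0878). The triploid change was -0.18 ± 0.22, and the interaction was -1.02 ± 0.33 (limma adjusted p = 0.675). The 2N- fish were also the lightest group, and with body weight in the fit the diploid estimate was 0.34 ± 0.28 (limma adjusted p = 0.78). Weight and cataract cannot be told apart in diploids. Of the triploid fish within the 2N- weight range, 3N+ replicates 1 (270 g) and 2 (325 g) had 18.4 and 14.0 RPKM. The other, 3N- replicate 2 (280 g), had 14.0 RPKM. The part of body weight was not tested further. The diploid estimate of CL1194.Contig9 passed the threshold without 2N- replicate 5 (limma adjusted p = 0.0454) or 2N+ replicate 2 (limma adjusted p = 0.0427), and that for 3N- against 2N- passed without 3N- replicate 1 (limma adjusted p = 0.0388). Those were its highest 2N-, lowest 2N+ and lowest 3N- lens, the ones most opposed to the change, so these calls add no support.

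Of the other tested contigs of that cluster, CL1194.Contig8 was also lowest in 2N- lenses, while CL1194.Contig6 was highest in 2N+ lenses. CL1194.Contig6, a contig of 256 bases, had 4.58, 9.38 and 13.8 RPKM in 2N+ lenses, against 2.27, 4.77 and 6.04 RPKM in 2N- lenses. It had 1.705, 4.84 and 10.2 RPKM in 3N+ lenses, against 4.86, 5.49 and 10.9 RPKM in 3N- lenses. Its 2N- median was the lowest group median but close to its 3N+ median, and its lowest lens was a 3N+ lens. Its diploid log2 change was 0.67 ± 0.26 (limma adjusted p = 0.23) and its interaction -1.04 ± 0.35. The 3 libraries rich in photoreceptor RNA held 12.9 and 13.8 RPKM (2N+ replicates 2 and 3) and 10.9 RPKM (3N- replicate 1). Without them the medians of CL1194.Contig6 were 6.18 RPKM in 2N+, 4.77 in 2N-, 4.84 in 3N+ and 5.26 in 3N- lenses. CL1194.Contig8, the longest at 1400 bases, had 0.124, 0.554 and 0.956 RPKM in 2N+ lenses, against 0, 0 and 0.459 RPKM in 2N- lenses. It lay between 0.262 and 1.082 RPKM in all triploid lenses. Its log2 change was 0.73 ± 0.22 in diploids (limma adjusted p = 0.102) and 0.49 ± 0.15 averaged over ploidies (limma adjusted p = 0.0836). CL1194.Contig8 passed in diploids without 2N- replicate 2, its highest 2N- lens and so the one most opposed to the change (limma adjusted p = 0.0372). How reads were divided among contigs of 1 name is not given in the sources used here. Summed over its 4 contigs, a sum formed after the values were seen, the enzyme took 7.31 to 12.2 RPM in 2N+ lenses, against 2.20 to 6.69 in 2N- lenses. The sum was 5.06 to 9.26 RPM in 3N+ lenses and 6.60 to 10.1 in 3N- lenses. Divided by the library factor, the sum was 5.65 to 9.86 in 2N+ lenses, against 2.19 to 6.07 in 2N- lenses, so the diploid groups overlapped.

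**Figure D3:**
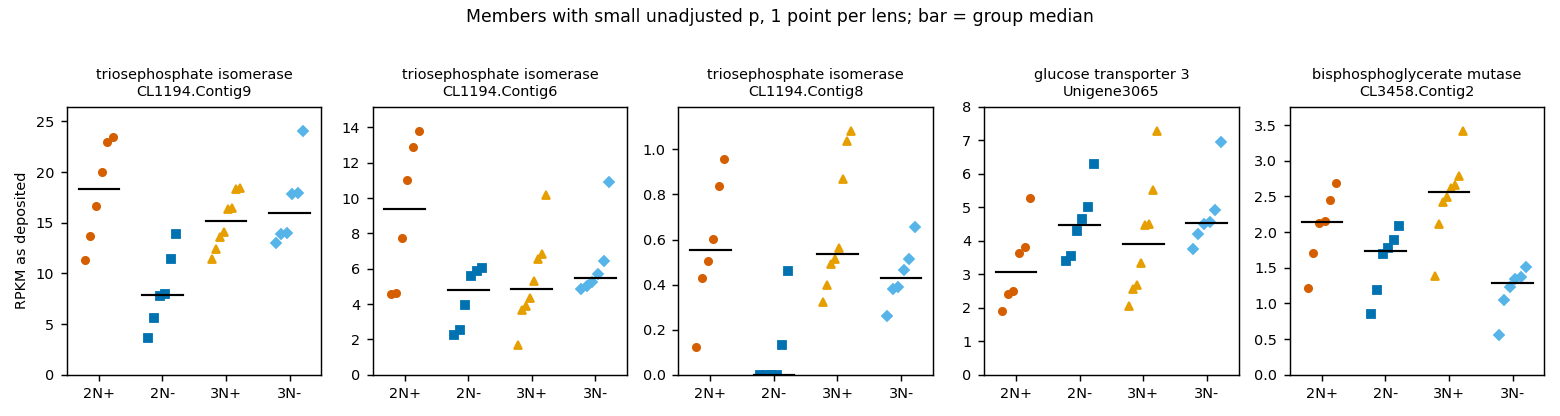
RPKM as deposited in each lens for 5 members with small unadjusted p-values, 3 contigs of triosephosphate isomerase, GLUT3 and a contig of bisphosphoglycerate mutase, by group in the order 2N+, 2N-, 3N+ and 3N-. The 2N- lenses are the low group for CL1194.Contig9 and CL1194.Contig8, while for CL1194.Contig6 their median lies close to that of the 3N+ lenses. For bisphosphoglycerate mutase CL3458.Contig2, 7 of 8 3N+ lenses lie above every 3N- lens.

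Glyceraldehyde-3-phosphate dehydrogenase makes the first high-energy phosphate of the pathway and reduces NAD. Its contig Unigene8377 was among the most variable members, with 34.0, 91.4 and 297 RPKM in 2N+ lenses, against 25.3, 74.2 and 90.4 RPKM in 2N- lenses, and 39.0, 63.3 and 133 RPKM in 3N+ lenses, against 31.6, 58.8 and 207 RPKM in 3N- lenses. The log2 change was 0.42 ± 0.41 in diploids, and -0.14 without the 3 libraries rich in photoreceptor RNA. The KEGG entry of Unigene8377 differs from that of Unigene9962, an untested contig whose best hit is the human liver form of this enzyme. Which form of the enzyme Unigene8377 represents was not tested. Phosphoglycerate kinase makes the first ATP of the pathway. Phosphoglycerate kinase 1, CL44.Contig1, had 55, 82.4 and 90.4 RPKM in 2N+ lenses, against 36.3, 56.3 and 64.3 RPKM in 2N- lenses, and 51.1, 62.1 and 85.3 RPKM in 3N+ lenses, against 52.0, 60.4 and 68.8 RPKM in 3N- lenses. Its diploid log2 change was small and narrowly bounded at 0.23 ± 0.09 (95% interval 0.06 to 0.41, limma adjusted p = 0.208).

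Bisphosphoglycerate mutase makes 2,3-bisphosphoglycerate in a side loop of the pathway, and phosphoglycerate mutase moves the phosphate of 3-phosphoglycerate for the next step. CL3458.Contig2, a bisphosphoglycerate mutase contig of 970 bases, had the smallest triploid p-value of the set. It had 1.39, 2.56 and 3.42 RPKM in 3N+ lenses, against 0.555, 1.29 and 1.51 RPKM in 3N- lenses. In diploids it had 1.22, 2.14 and 2.69 RPKM in 2N+ lenses, against 0.852, 1.74 and 2.09 RPKM in 2N- lenses. Of the 8 3N+ lenses, 7 lay above every 3N- lens, while the diploid groups overlapped. The log2 change was 0.82 ± 0.20 in triploids (95% interval 0.40 to 1.24, limma adjusted p = 0.111), 0.08 ± 0.22 in diploids and 0.45 ± 0.15 averaged (limma adjusted p = 0.114). Without 3N+ replicate 5, its lowest 3N+ lens and so the one most opposed to the change, the triploid change of CL3458.Contig2 passed the threshold (limma adjusted p = 0.035). Bisphosphoglycerate mutase is abundant in the red blood cells of mammals. Without the 3 lenses richest in erythrocyte RNA the triploid change was 0.85 ± 0.23 (limma adjusted p = 0.281). Those lenses, 3N- replicate 5, 2N+ replicate 1 and 3N+ replicate 1, had 1.23, 2.16 and 2.62 RPKM of CL3458.Contig2. CL3458.Contig1, of the same cluster, had medians of 7.63 RPKM in 2N+, 5.36 in 2N-, 7.82 in 3N+ and 5.64 in 3N- lenses, and an averaged log2 change of 0.24 ± 0.11 (limma adjusted p = 0.332). Phosphoglycerate mutase 1, Unigene7498, had medians of 23.0 RPKM in 2N+, 16.8 in 2N-, 18.0 in 3N+ and 17.0 in 3N- lenses.

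Enolase forms phosphoenolpyruvate, and its 9 tested contigs carried the names of the alpha, gamma and muscle-type (3-1) forms. Averaged over ploidies all 9 had a positive log2 change, compared with 51.7% of all unigenes, and none of them passed the threshold. Several are contigs of cluster CL1754, which can share reads, so the 9 are not independent. The most abundant, alpha-enolase CL1754.Contig2, had 18.8, 23.8 and 52.7 RPKM in 2N+ lenses, against 11.3, 20.8 and 24.4 RPKM in 2N- lenses, and 20.1, 25.7 and 31.4 RPKM in 3N+ lenses, against 18.5, 22.5 and 45.3 RPKM in 3N- lenses. The gamma-enolase-like Unigene9102 had 16.9, 21.4 and 28.4 RPKM in 3N+ lenses, against 9.86, 14.7 and 22.5 RPKM in 3N- lenses, with a triploid log2 change of 0.52 ± 0.21 (limma adjusted p = 0.432). Enolase 3-1, Unigene3158, had 8.66, 10.5 and 17.2 RPKM in 3N+ lenses, against 7.28, 9.15 and 10.1 RPKM in 3N- lenses, and an averaged log2 change of 0.31 with a 95% interval of 0.02 to 0.60. Several of these contigs were high in the lenses richest in keratin RNA. Unigene9102 had 23.3 and 28.4 RPKM in 3N+ replicates 6 and 1 and 29.2 RPKM in 2N+ replicate 5, against 9.86 to 26.3 RPKM in the other 23 lenses. Unigene3158 had its highest level, 17.2 RPKM, in 3N+ replicate 6, which held 637 RPKM of keratins. Without those 3 lenses the averaged log2 changes of the 9 contigs ran from 0.01 to 0.22, that of Unigene9102 was 0.17 ± 0.15, and its triploid change was 0.43 ± 0.21 (limma adjusted p = 0.715).

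Lactate dehydrogenase regenerates NAD by reducing pyruvate to lactate, and its B form was among the steadiest members. CL389.Contig1 had 34.6, 50.0 and 63.1 RPKM in 2N+ lenses, against 27.3, 36.1 and 48.3 RPKM in 2N- lenses, and 27.5, 38.0 and 49.8 RPKM in 3N+ lenses, against 34.3, 37.7 and 46.9 RPKM in 3N- lenses. Its log2 change was 0.10 ± 0.10 in diploids (95% interval -0.10 to 0.29) and -0.09 ± 0.09 in triploids.

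Aldose reductase, the entry enzyme of the polyol pathway, did not pass the test in any comparison. CL3352.Contig1 had 27.7, 32.6 and 38.4 RPKM in 2N+ lenses, against 21.0, 26.9 and 31.8 RPKM in 2N- lenses. It had 21.9, 30.6 and 33.4 RPKM in 3N+ lenses, against 24.4, 26.5 and 28.9 RPKM in 3N- lenses. The log2 change was 0.02 ± 0.11 in diploids, with a 95% interval of -0.21 to 0.25, and 0.12 ± 0.11 in triploids, with a 95% interval of -0.10 to 0.34. For 3N- against 2N- it was -0.00 ± 0.11. Ketohexokinase, which phosphorylates fructose, the end product of the pathway, had a similar level per length. Unigene6462 had medians of 38.6 RPKM in 2N+, 29.8 in 2N-, 31.6 in 3N+ and 30.4 in 3N- lenses, and a diploid log2 change of 0.06 ± 0.12. D-3-phosphoglycerate dehydrogenase, which opens serine synthesis from a glycolytic intermediate, ran more widely. CL2226.Contig1 had 38.8, 70.3 and 122 RPKM in 2N+ lenses, against 33.8, 90.4 and 106.8 RPKM in 2N- lenses, and a diploid log2 change of -0.43 ± 0.32. The 3 contigs of enolase-phosphatase E1, an enzyme of methionine salvage, summed to medians of 7.77 RPM in 2N+, 6.67 in 2N-, 7.57 in 3N+ and 6.63 in 3N- lenses.

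Several members were highest in the libraries rich in photoreceptor RNA. On RPKM as deposited, 7 of the 39 tested members had each of those 3 libraries above all other 23, as did 4.76% of all tested unigenes. With untested contigs included, 9 of the 48 did so. The library factor was 1.29 and 1.41 in 2N+ replicates 2 and 3 and 1.13 in 3N- replicate 1. The count was not repeated on scaled values, on which not all of these members stay above the other libraries. Unigene8377 (glyceraldehyde-3-phosphate dehydrogenase) had 297 and 180 RPKM in 2N+ replicates 2 and 3 and 207 RPKM in 3N- replicate 1, against at most 133 RPKM elsewhere. Those 133 RPKM were in 3N+ replicate 6, where the library factor was 1.005. Divided by that factor, Unigene8377 was higher in 3N+ replicate 6 than in 2N+ replicate 3. Unigene4961 (phosphofructokinase) had 20.2 and 15.3 RPKM in the 2N+ libraries and 16.2 RPKM in the 3N- library, against at most 10.3 RPKM elsewhere. Unigene19934, an untested lactate dehydrogenase contig of 212 bases that was singled out after its values were seen, had 27.9 and 12.2 RPKM in the 2N+ libraries and 26.8 RPKM in the 3N- library, against at most 2.56 RPKM elsewhere. The other 6 were 2 contigs of alpha-enolase, 2 of phosphoglycerate mutase, 1 of phosphofructokinase and 1 of lactate dehydrogenase. Aldose reductase was not among them. The part of photoreceptor RNA in the group differences of these 9 was not tested beyond the fit without the 3 libraries.

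**Figure D4:**
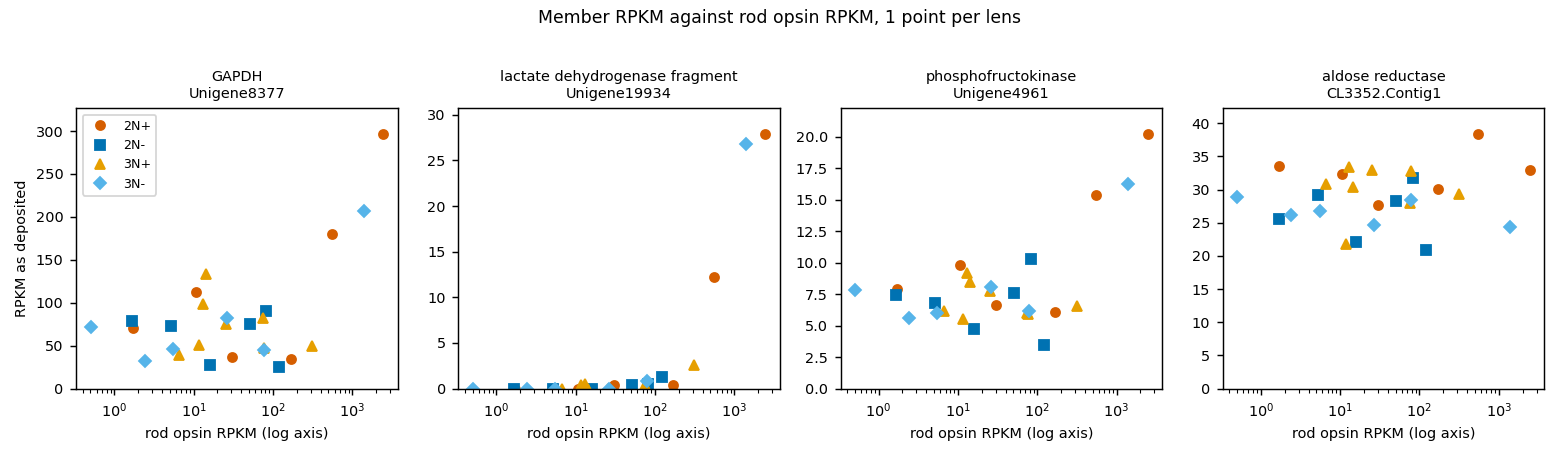
RPKM in each lens of glyceraldehyde-3-phosphate dehydrogenase, the lactate dehydrogenase contig Unigene19934, phosphofructokinase Unigene4961 and aldose reductase against rod opsin RPKM on a log axis, with member RPKM on a linear axis from 0, coloured by group. The 3 lenses with 555 RPKM or more of rod opsin are the highest for all but aldose reductase.

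Connexin 43 is given beside the members because single ones followed it, though the members as a set did not do so more than other unigenes. In the 14 lenses with 23.7 RPKM or more, 29 of the 39 tested members had a higher median than in the 12 lenses with 7.89 RPKM or less, which is 74.4%, compared with 83.9% of all unigenes. These are RPKM as deposited, and the library factor was 0.983 to 1.41 in the 14 lenses and 0.709 to 0.98 in the 12. Divided by that factor, 17 of the 39 (43.6%) had a higher median in the 14, compared with 50.0% of all unigenes. GLUT1A had 2.03 to 6.61 RPKM in the 14 lenses (median 3.75), against 0.456 to 2.05 RPKM in the 12 (median 0.867). Aldolase C, Unigene9179, which was singled out after its values were seen, had a median of 11.6 RPKM in the 14 and 4.32 RPKM in the 12, and D-3-phosphoglycerate dehydrogenase had 95.6 RPKM in the 14 and 44.8 RPKM in the 12. On that scaled level GLUT1A had medians of 3.73 in the 14 and 0.993 in the 12, and aldolase C 10.9 in the 14 and 5.02 in the 12. Phosphofructokinase Unigene4961 had 6.78 to 20.2 RPKM in the 14 and 3.45 to 6.65 RPKM in the 12 as deposited, but once scaled it overlapped, with 6.78 to 15.6 in the 14 and 4.87 to 7.49 in the 12. No tested member was separated on the scaled level, and 2.37% of all unigenes were, in the higher direction. Triosephosphate isomerase CL1194.Contig9 had medians of 13.8 RPKM in the 14 and 14.0 RPKM in the 12 as deposited. Once scaled, its medians were 12.3 in the 14 and 16.3 in the 12. The part of this split in the cataract comparisons was not tested beyond a fit with connexin 43 as a covariate, in which CL1194.Contig9 had a diploid log2 change of 0.85 ± 0.23 (limma adjusted p = 0.03).

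**Figure D5:**
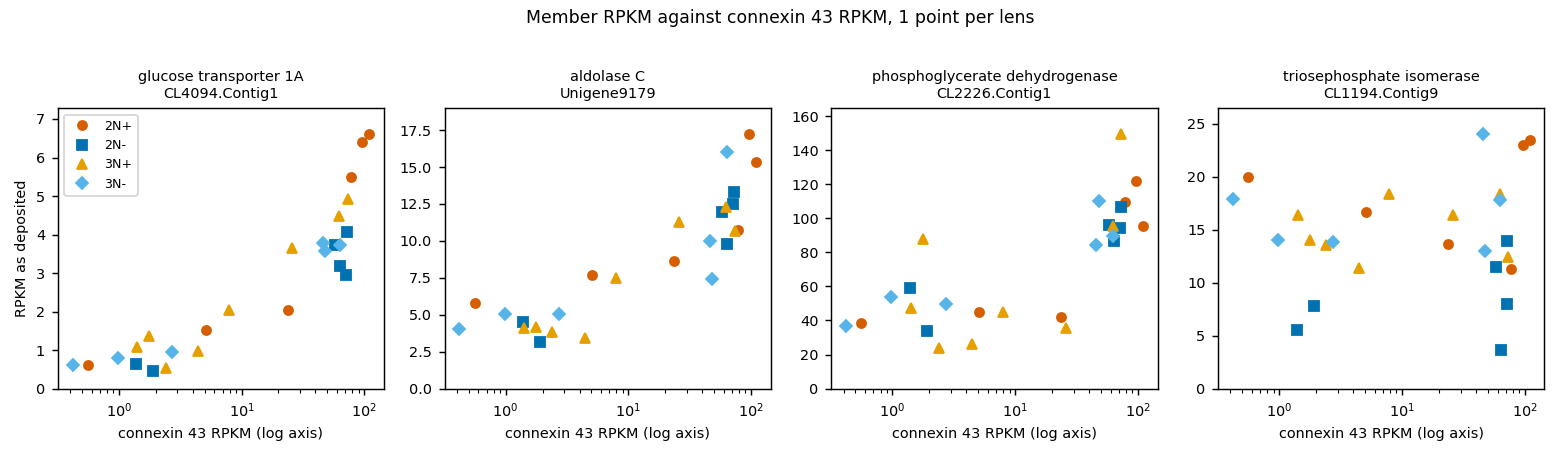
RPKM in each lens of GLUT1A, aldolase C Unigene9179, D-3-phosphoglycerate dehydrogenase and triosephosphate isomerase CL1194.Contig9 against connexin 43 RPKM on a log axis, with member RPKM on a linear axis from 0, coloured by group. The first 3 have higher medians in the 14 lenses with 23.7 RPKM or more of connexin 43, and the isomerase does not.

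The pathways that branch from glycolysis gave no call either. Unigenes were gathered by name for the pentose phosphate pathway (10 tested of 10), gluconeogenesis and regulators of glycolysis (11 of 14), glycogen (13 of 18), pyruvate and lactate handling (11 of 14), and osmolytes and dicarbonyl defence (6 of 7, ketohexokinase included). In each of the 5 lists and each of the 6 comparisons 0 rose and 0 fell. From 0.00512% to 2.67% of all unigenes were called in these comparisons, so 0 in lists this small is close to the background. For 2N+ against 2N- the median log2 changes were -0.06, -0.23, 0.18, -0.06 and 0.14 in that order, against 0.02 for all unigenes. The pentose phosphate enzymes, of which only some make NADPH for the lens's glutathione, included contigs more abundant per length than any glycolytic one. Transaldolase, CL1501.Contig1, which makes no NADPH, averaged 235 ± 16 RPKM (SD, n = 26). The NADPH-making 6-phosphogluconate dehydrogenase, Unigene8787, averaged 153 ± 17 RPKM, and glucose-6-phosphate 1-dehydrogenase, CL2497.Contig1, averaged 6.98 ± 1.5 RPKM. The smallest adjusted p-value in these lists belonged to mitochondrial phosphoenolpyruvate carboxykinase, an enzyme of gluconeogenesis. Unigene5719 had 2.31, 2.94 and 3.79 RPKM in 2N+ lenses, against 3.19, 4.03 and 5.56 RPKM in 2N- lenses. In triploids it had 1.91, 3.28 and 4.66 RPKM in 3N+ lenses, against 3.095, 3.81 and 5.01 RPKM in 3N- lenses. Its averaged log2 change was -0.47 ± 0.14 (limma adjusted p = 0.0605). By ploidy the change was -0.68 ± 0.20 in diploids (limma adjusted p = 0.089) and -0.27 ± 0.19 in triploids (limma adjusted p = 0.764).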

How the data were processed

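The authors deposited 1 table of RPKM values for 26681 unigenes in 26 libraries, with each unigene's best protein hit and ontology terms. No assembler, aligner or build is named in the sources used here. A dash was read as 0. Whole reads were recovered for 100% of unigenes within 0.01 reads. RPKM was divided by TMM factors (trims 0.3 and 0.05) computed from those reads, and log2(value + 0.5) was tested with limma 3.58.1 in R 4.3.3 (trend, robust), 1 model of 4 group means. Unigenes needed over 10 reads at the median library size in at least 6 libraries and 15 reads in all, which left 19532. Two-sided p-values were adjusted over all of them (Benjamini-Hochberg, threshold 0.05). The members and the lists of neighbouring pathways were chosen with earlier results of these data known. The text names the most abundant member of each step, the glucose transporters, aldose reductase and the 3 members with the smallest p-values per comparison. Where another member or CL2696.Contig2 is named, the text says how it was chosen. Unigenes of the neighbouring lists were named outside that rule, for their abundance or for the smallest adjusted p-value. The recovered reads were also tested with limma's voom. A simulated table was used to test the fit. Each library is a separate fish. Tables and plots were made with Python 3.11.15, pandas 2.3.3 and matplotlib 3.10.9.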

Additional observations from a re-analysis of the deposited data

Results flagged for a closer look

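For 31 members, those described by name and those highest in the libraries rich in photoreceptor RNA, lenses were compared within each of the 4 groups. In 23 instances among these 124 sets the highest or lowest lens lay apart from the others by more than Dixon's 95% critical share of the range. Chance alone marks about 5 in 100 sets whose members were not chosen by their values. Some of these members were chosen because they were highest in the libraries rich in photoreceptor RNA. That rate therefore cannot be compared with the 23 instances.

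In 3N- replicate 1, which is rich in photoreceptor RNA, 12 members stood above the other 3N- lenses. Glyceraldehyde-3-phosphate dehydrogenase Unigene8377 had 207 RPKM there (others 31.6 to 81.9), alpha-enolase CL1754.Contig2 45.3 (18.5 to 24.8), a further alpha-enolase, CL1754.Contig1, 16.3 (3.90 to 6.74), phosphoglycerate mutase Unigene78 28.7 (9.23 to 15.7) and phosphoglycerate mutase Unigene7498 35.9 (15 to 19.9). Phosphofructokinase Unigene4961 had 16.2 RPKM (5.61 to 8.03), phosphofructokinase Unigene9799 8.16 (1.98 to 4.07) and triosephosphate isomerase CL1194.Contig6 10.9 (4.86 to 6.42). The lactate dehydrogenase contigs Unigene19934 and CL389.Contig2 had 26.8 RPKM (0 to 0.864) and 11.8 RPKM (0 to 0.428). The GLUT3 contigs CL609.Contig1 and Unigene3065 had 8.38 RPKM (1.54 to 3.81) and 6.93 RPKM (3.75 to 4.93).

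In 2N+ replicate 2, also rich in photoreceptor RNA, CL609.Contig1 had 5.42 RPKM (others 1.46 to 2.80) and aldolase Unigene8635 had 73.9 RPKM (29.3 to 43.2). In 3N+ replicate 8, the lens with the next highest photoreceptor sum, CL389.Contig2 had 2.95 RPKM (0 to 0.848) and Unigene19934 2.56 RPKM (0 to 0.483). In 2N- replicate 2, Unigene19934 had 1.30 RPKM (0 to 0.451) and triosephosphate isomerase CL1194.Contig8 0.459 RPKM (0 to 0.13).

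Aldose reductase CL3352.Contig1 had 21.9 RPKM in 3N+ replicate 2, below the other 3N+ lenses (28 to 33.4). Ketohexokinase Unigene6462 had 33.1 RPKM in 2N+ replicate 5, below the other 2N+ lenses (37.6 to 39.4). Enolase 3-1 Unigene3158 had 17.2 RPKM in 3N+ replicate 6, above the other 3N+ lenses (8.66 to 12.6). Gamma-enolase CL454.Contig1, singled out after its values were seen, had 19.4 RPKM in 2N+ replicate 5 (6.78 to 10.9), and Unigene9799 had 6.02 RPKM in 3N+ replicate 3 (2.31 to 3.73).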

How the results depend on the processing

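On RPKM as deposited the median of all unigenes moved to 0.28 (log2) for 2N+ against 2N- and 0.16 for the averaged effect, and the share of calls that were higher went to 83.3% and 78.1%, against 20.3% and 30.5% with scaling. There 5 members were called for 2N+ against 2N- (1315 of all unigenes, against 271), 7 for the averaged effect (1432, against 522) and 1 for 3N- against 2N- (60, against 14). The 5 were CL44.Contig1, CL3458.Contig1, CL1194.Contig9, CL1194.Contig8 and Unigene3158. A pseudocount of 0.1 called 1 member (CL1194.Contig8) for 2N+ against 2N- (251 of all unigenes). The 2N- median of CL1194.Contig8 is 0 RPKM, so its log2 change depends on the pseudocount: 1.78 with 0.1, against 0.73 with 0.5. The connexin 43 covariate called 2, 1 and 1 (2N+ against 2N-, 3N+ against 3N-, averaged), and all unigenes 810, 126 and 1098. Voom on recovered reads called 572, 42, 725, 175, 108 and 1 unigenes in the 6 comparisons in the order of the report, and 1 member, for 3N- against 2N-. So did leaving out the 3 libraries rich in photoreceptor RNA, an alternative chosen after seeing the data (79 of all; CL1194.Contig9, 1.13, limma adjusted p = 0.03). That fit called 28 unigenes for 2N+ against 2N-, 18 for 3N+ against 3N- and 266 for the averaged effect. Without the 3 lenses richest in keratin RNA, or in erythrocyte RNA, alternatives also chosen after seeing the data, the 3 cataract counts were 140, 8 and 269, or 344, 1 and 422, with 0 members; 3N- against 2N- gave 22 or 7, and 3N+ against 2N+ 0. A fit of the diploid lenses alone called 70 unigenes and 0 members. With body weight 43, 22, 246, 0, 3 and 0 unigenes were called in the same order, and 0 members. On RPKM as deposited 3N+ against 3N- gave 48 and 3N+ against 2N+ 10; with a pseudocount of 0.1 or no filter 3N+ against 2N+ gave 0.

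Leaving out each lens in turn gave 0 to 1 called members in 2N+ against 2N-, 3N+ against 3N-, the averaged effect and 3N- against 2N-, and 0 in the other comparisons. The call appeared without 2N- replicate 2 (CL1194.Contig8), 2N- replicate 5 (CL1194.Contig9), 2N+ replicate 2 (CL1194.Contig9, and CL1194.Contig8 averaged), 3N- replicate 1 (CL1194.Contig9, 3N- against 2N-), 3N+ replicate 2 (Unigene3065, averaged) and 3N+ replicate 5 (CL3458.Contig2). Each lens left out was the one of its group most opposed to that member's change, so these calls add no support for it. Over all unigenes the count for 2N+ against 2N- ran from 103 (without 2N+ replicate 3) to 487 (without 2N+ replicate 4), and for 3N+ against 3N- from 5 (without 3N- replicate 3 or 5) to 43 (without 3N+ replicate 5). With a replicate block members called stayed at 0, and 222, 4, 368, 5, 1 and 1 unigenes were called. The numbers do not pair the fish: 18 of 36 same-numbered pairs correlated above 0.1, and 3 of 26 libraries were nearest to their own number. Of 5500 values of named members and CL2696.Contig2 under the alternatives, 244 had the other sign, none of them called in either fit, 33 gained a call and 4 lost one. The causes were not tested.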
